A study of Mus musculus with 10 samples.

Results

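The genes examined here are Cdkn1a, Mdm2 and Ccng1, 3 of the best known transcriptional targets of the tumour suppressor p53, in mouse muscle stem cells (MuSCs, also called satellite cells) profiled by CUT&RUN. Members were taken as the peaks that the deposited tables list with these 3 genes, matched by Ensembl identifier. For H4K20me1 (histone H4 monomethylated at lysine 20) 1 of 44925 peaks was listed with a member, namely Mdm2. For Pol II S2P (the elongating form of RNA polymerase II, with phosphate on serine 2 of its C-terminal repeat) 17 of 51322 peaks were, 7 each with Cdkn1a and Mdm2 and 3 with Ccng1. Cdkn1a and Ccng1 had no listed H4K20me1 peak.

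In CUT&RUN an antibody recruits an MNase fusion protein to the chromatin it binds, and the DNA cut free there is sequenced. Control cells (Ctrl) had the genotype Pax7CreERT/Suv4-20h1WT and mutant cells (sKO) the genotype Pax7CreERT/Suv4-20h1KO, where Suv4-20h1 is another name of Kmt5b, a methyltransferase that adds further methyl groups to H4K20me1. Both genotypes thus carry the tamoxifen-inducible Cre at Pax7, which is expressed in satellite cells, and by the study's methods tamoxifen was given to adult mice on a C57BL/6 background and the purified cells were expanded in culture. Each genotype has 2 libraries per antibody, while 2 further libraries made with IgG were not used here. The study describes the 2 libraries of a group as biological replicates, but the labels do not say whether they came from separate mice, and p-values measure the spread between these libraries.

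p53 is a sequence-specific transcription factor that is held at a low level by MDM2, the ubiquitin ligase encoded by its own target gene Mdm2, and that accumulates when DNA is damaged or replication stalls. Cdkn1a encodes p21, the inhibitor of cyclin-dependent kinases that carries out much of the p53-dependent cell cycle arrest, and Ccng1 encodes cyclin G1, which binds the phosphatase PP2A and acts on MDM2. In satellite cells p21 is known for its part in withdrawal from the cell cycle. H4K20me1 is deposited by KMT5A, forms broad domains over gene bodies and is converted to the higher methyl states by KMT5B and KMT5C.

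p53 binds a pair of adjacent 10-base motifs, and the letters of the members' upstream regions are shown first because they hold the site through which p53 is known to act at Cdkn1a and because they can be set beside the polymerase peaks. The sequences are from RefSeq (GRCm38.p6), read 5′ to 3′ on the strand of the gene up to the base before the first annotated exon. Capitals mark a p53 element, defined as 2 such motifs (3 purines, C, 2 bases that are A or T, G, 3 pyrimidines) with 0 or 1 base between them, the C and G of both kept and at most 2 mismatches. The motif is its own reverse complement, so a search of 1 strand covers both. The stretches are chr17:29090729-29090975 on the plus strand for Cdkn1a, chr11:40755312-40755536 on the minus strand for Ccng1 and chr10:117710759-117711008 on the minus strand for Mdm2.
Cdkn1a: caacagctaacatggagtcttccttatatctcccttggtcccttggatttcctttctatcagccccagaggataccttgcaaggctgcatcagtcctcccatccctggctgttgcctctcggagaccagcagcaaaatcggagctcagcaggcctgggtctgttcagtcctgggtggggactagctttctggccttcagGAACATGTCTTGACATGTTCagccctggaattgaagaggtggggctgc
Ccng1: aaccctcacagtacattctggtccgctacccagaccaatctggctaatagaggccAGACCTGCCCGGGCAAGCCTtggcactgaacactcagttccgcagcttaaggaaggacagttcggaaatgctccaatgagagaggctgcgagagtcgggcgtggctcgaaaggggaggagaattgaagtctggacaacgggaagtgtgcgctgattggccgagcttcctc
Mdm2: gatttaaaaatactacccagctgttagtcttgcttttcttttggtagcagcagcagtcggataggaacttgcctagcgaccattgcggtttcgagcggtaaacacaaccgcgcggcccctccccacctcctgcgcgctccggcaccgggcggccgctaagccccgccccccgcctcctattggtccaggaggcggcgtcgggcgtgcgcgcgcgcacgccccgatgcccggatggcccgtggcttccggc

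Cdkn1a held 1 element with 1 mismatch, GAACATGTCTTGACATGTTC at chr17:29090928-29090947, between genes and just ahead of the annotated start. Ccng1 held 1 element with 1 mismatch, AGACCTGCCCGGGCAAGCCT at chr11:40755462-40755481. The letters of the motif were not found in the promoter window of Mdm2 (250 bases before to 50 after the RefSeq start). Beyond that window Mdm2 was searched only within its listed Pol II S2P peaks, so an element elsewhere in the gene would be missed. Of the 31396 autosomal RefSeq promoters of the same length 214 (0.682%) held a match. Over the 17 Pol II S2P peaks of the members a match was found in 1 peak, the one at the start of Ccng1 (1017 bases), which holds the element above and a second, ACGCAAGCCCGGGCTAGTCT at chr11:40754936-40754955 in an intron. Windows of that length around the centres of all 50698 autosomal Pol II S2P peaks held a match in 3.14% of cases. At Cdkn1a the element lies upstream of all listed polymerase peaks, the nearest of which begins 2304 bases inside the annotated gene.

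Some facts of the whole series bear on every value below. Scores are normalised coverage per peak, given as whole numbers and not divided by length, and a gene's score is the sum over its listed peaks. Summed over all peaks the H4K20me1 totals were 15218720 to 20432644 for the Ctrl libraries and 32194136 to 35046570 for the sKO libraries, whereas the Pol II S2P totals of the genotypes overlapped, from 3257665 to 4885638. Genes were compared with limma on log2(score + 1) and called where the adjusted p was under 0.1 and the log2 fold change (log2FC, sKO against Ctrl) passed 0.5 in either direction, a scale that understates the change of low scores. For H4K20me1 the median tested gene had a log2FC of 1.11, and for Pol II S2P it was 0.09. Kmt5b itself had 2 Pol II S2P peaks that summed to 24 and 62 in Ctrl and 48 and 22 in sKO, too low to test. Of 8 satellite cell markers 6 had a Pol II S2P peak, among them Pax7, Myod1 and Des, while Myf5 and Cdh15 had none. Myod1, the gene of the myogenic factor MyoD, scored 1329 and 1110 in Ctrl and 887 and 649 in sKO. Its genotypes were thus apart, with a log2FC of -0.68 (limma adjusted p 1, not called) at percentile 0.41, while the other 5 markers overlapped, and the summed list gave 7117 to 7922 for Ctrl against 5945 to 8746 for sKO. The part of this difference in the members' values was not tested. Of the other cell types 0 of 4 fibro-adipogenic markers, 2 of 4 endothelial markers (Pecam1 and Tek) and 2 of 4 immune markers (Cd68 and Csf1r) had a peak. The summed Pol II S2P scores of the endothelial list were 133 to 211 for Ctrl against 151 to 256 for sKO, and those of the immune list 900 to 997 against 874 to 1368, with overlap of the genotypes in both. Most of the immune sum came from Cd68 alone, with 863 and 952 in Ctrl and 1308 and 840 in sKO, while Csf1r was too low to test.

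On the deposited scale H4K20me1 scored higher in sKO at Mdm2, the 1 member with a listed peak, but by less than at most genes. In Mdm2 (ENSMUSG00000020184, chr10:117688875-117710758, minus strand) the Ctrl scores were 1082 and 1366 and the sKO scores 1761 and 1724. The sKO libraries lay above the Ctrl libraries, with means of 1224 ± 201 for Ctrl and 1743 ± 26.2 for sKO (SD, n = 2 each). The log2FC was 0.52 ± 0.27 (SE, unadjusted p 0.0561 with limma, adjusted p 0.0617). That was 0.59 below the median gene and at percentile 7.48 of the 13750 genes tested. Mdm2 was thus called higher, as were 92.3% of all tested genes, and in 96.5% of all genes both sKO scores exceeded both Ctrl scores.

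This call rests on the deposited scale, on which the totals of sKO were larger. With the libraries scaled to equal totals Mdm2 had a log2FC of -0.41 (limma adjusted p 3.71e-05), which did not pass the limit of 0.5, where 24.1% of genes were called higher and 4.31% lower. The call was also lost without Ctrl replicate 1 (0.35), sKO replicate 1 (0.50, limma adjusted p 0.43) or sKO replicate 2 (0.53, limma adjusted p 0.424).

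**Figure D1:**
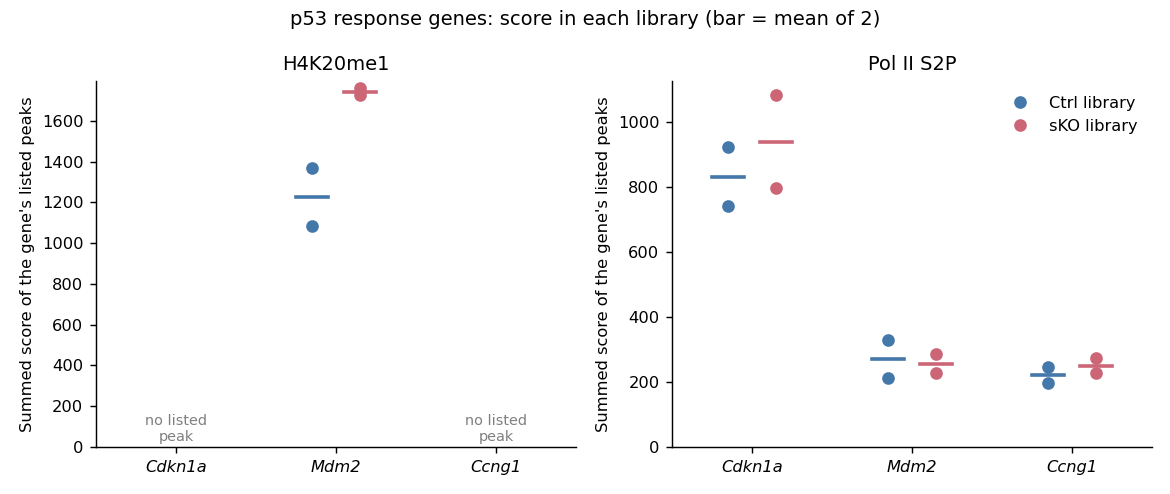
Summed score of the listed peaks (vertical axis, linear, from 0) of the 3 genes in each library for H4K20me1 (left) and Pol II S2P (right), with points for libraries and bars for the mean of 2. The sKO points of Mdm2 lie above its Ctrl points for H4K20me1, whereas the genotypes overlap for Pol II S2P in all 3 genes.

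The peak behind this score was broad and shared with a neighbour. The Mdm2 peak (chr10:117676000-117711599) covered the whole gene with 61.5% of its length and entered Cpm, the gene of carboxypeptidase M that converges on Mdm2, with 31.9%.

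Ccng1 (ENSMUSG00000020326, chr11:40748552-40755311, minus strand) was not without H4K20me1. It lies wholly within a peak of 59800 bases that is listed with Hmmr, the gene of the hyaluronan receptor RHAMM, and it takes up 11.3% of that peak. The peak scored 1187 and 1542 in Ctrl and 2814 and 3068 in sKO, and every sKO score was above every Ctrl score. Credited by overlap, the share of Ccng1 came to 134 and 174 in Ctrl and 318 and 347 in sKO. The log2FC was 1.11 ± 0.28 (SE, limma adjusted p 0.00019) at percentile 55.2, in a count that called 92.2% of genes higher. The value assumes an even score along the peak and is that of the whole domain, not of Ccng1 alone.

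Cdkn1a (ENSMUSG00000023067, chr17:29090976-29100727, plus strand) was the 1 member that no H4K20me1 peak crossed. The nearest peaks ended 39977 bases before its start and began 36673 bases past its end. This gap of 86400 bases is wider than 92.4% of the gaps between neighbouring autosomal peaks, whose median is 8000 bases. A gene of 9752 bases that no peak crosses can lie only in a gap longer than itself, so a rank above the median was fixed in advance. Among the 20807 autosomal protein-coding genes 72.5% were crossed by an H4K20me1 peak. Cdkn1a had much polymerase all the same. Of the 611 protein-coding genes with a Ctrl Pol II S2P score at least as high, Cdkn1a included, 44 (7.20%) were crossed by no H4K20me1 peak. That score is a sum not divided by length, and the share was not matched for gene length.

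The peaks on either side of Cdkn1a had their genotypes in opposite order. The one before it is listed with Srsf3, a splicing factor gene, and scored 736 and 901 in Ctrl and 655 and 703 in sKO. Both sKO scores lay below both Ctrl scores, an order found in 12 of 41005 tested peaks (0.0293%), with a log2FC of -0.26 (limma adjusted p 0.344, not called). At equal totals it was called lower (-1.19), as were 3.32% of peaks. The peak past Cdkn1a, listed with Rab44, scored 158 and 151 in Ctrl and 250 and 336 in sKO (log2FC 0.90, called higher as were 90% of peaks, and with the genotypes apart as in 93.8%). The Srsf3 peak was singled out after its values were seen.

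**Figure D2:**
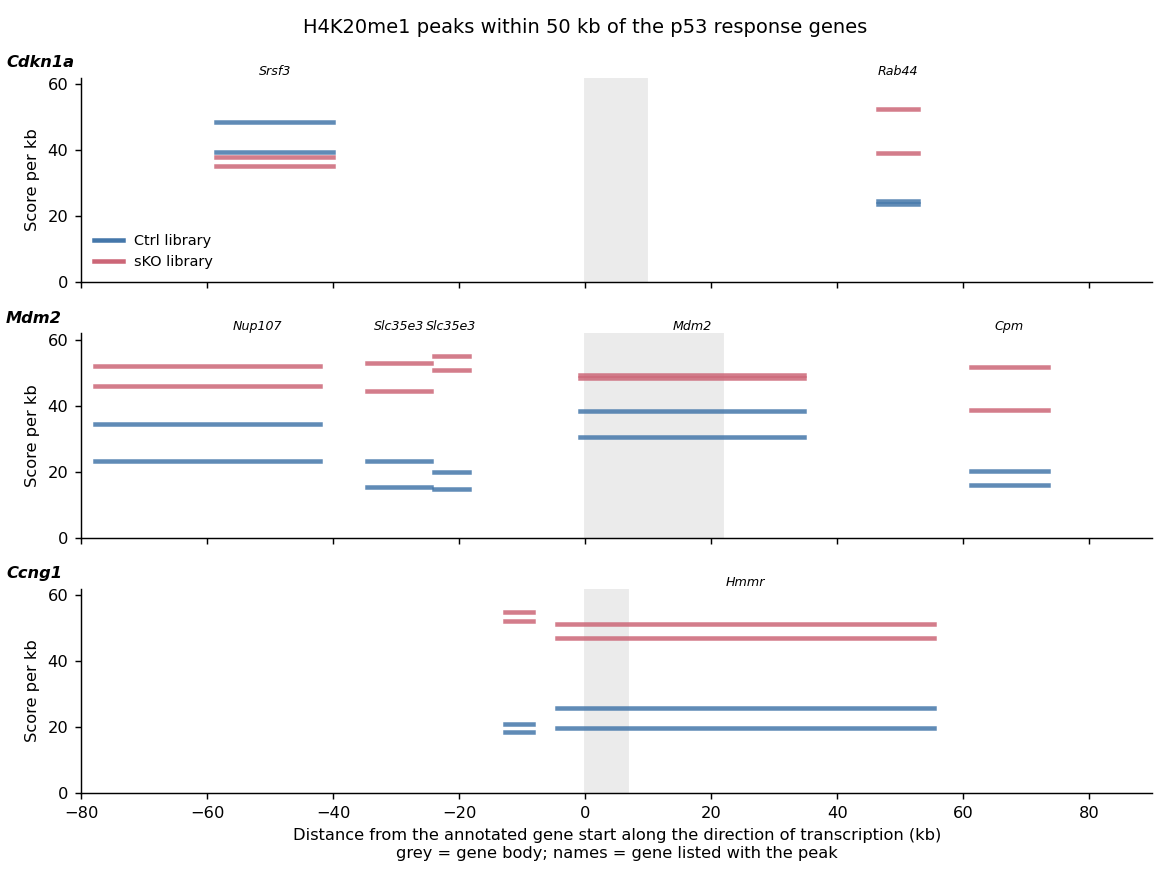
H4K20me1 peaks within 50 kb of the 3 genes, plotted by distance from the annotated gene start in the direction of transcription (kb) against score per kb of peak, with 1 line per library. The gene bodies (grey) of Mdm2 and Ccng1 are covered, that of Cdkn1a is not, and the peak listed with Srsf3 is the one in which the sKO lines lie under the Ctrl lines.

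Pol II S2P over the listed peaks was not shown to differ between the genotypes at any of the 3 genes. Cdkn1a had the highest level, with 743 and 923 in Ctrl and 1083 and 798 in sKO, and its 2 genotypes overlapped. Per kb of gene its Ctrl mean was 85.4, at percentile 95.7 of the 9617 protein-coding genes with a listed peak, against 32.8 for Ccng1 (percentile 87.1) and 12.4 for Mdm2 (percentile 71.2).

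Mdm2 scored 211 and 330 in Ctrl and 285 and 228 in sKO, and Ccng1 198 and 246 in Ctrl and 273 and 227 in sKO. The genotypes overlapped in each gene, with sKO replicate 1 above sKO replicate 2 in every member, the order of the library totals.

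The log2FC values were 0.17 ± 0.43 (SE) for Cdkn1a, -0.05 ± 0.41 for Mdm2 and 0.17 ± 0.41 for Ccng1, each with a limma adjusted p of 1. Their median was 0.17 beside 0.09 over all 8531 tested genes. Of the members 0 of 3 were called, as were 0% of all genes in either direction, with 100 genes and 0 members at an unadjusted p under 0.05. No member had its genotypes apart, against 9.41% of genes with both sKO libraries above and 4.52% with both below. With standard errors of this size a difference of 0.5 could not be told from none. The study, with another test on spike-in normalised coverage over genes, reports higher Pol II S2P at many genes in sKO. By quantitative PCR it also reports more Cdkn1a RNA in sKO cells. These are other measures than the listed peaks, and neither was repeated here.

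The members differed in where along the gene the polymerase stood. In Cdkn1a there was no peak within 1 kb of the annotated start, and the first peak, 2304 to 2970 bases into the gene and across its second RefSeq start, scored 54 and 142 in Ctrl and 169 and 100 in sKO. The largest peak followed it and held between 45.9% and 55.9% of the gene's score in each library, with 415 and 436 in Ctrl and 497 and 398 in sKO. The last, across the 3′ end, scored 142 and 218 in Ctrl and 304 and 202 in sKO. Of the 7 Cdkn1a peaks 1 had its genotypes apart, a small one inside the gene with 69 and 68 in Ctrl and 53 and 52 in sKO (log2FC -0.38, limma adjusted p 1).

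In Ccng1 the peak at the start, the one with the p53 elements, held between 72.2% and 84.8% of the score, with 168 and 199 in Ctrl and 218 and 164 in sKO. In Mdm2 the score was spread over 7 small peaks. The one at the start scored 72 and 64 in Ctrl and 43 and 47 in sKO, lower in both sKO libraries, with a log2FC of -0.58 (limma adjusted p 1).

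Of the 17 listed peaks 10 had a mean over 30 and were tested, and 0 were called, beside 0.0268% of all tested peaks called higher and 0.00298% called lower. Among the 10 tested, sKO was above Ctrl without overlap in 1 and below it in 2, beside 17.6% and 6.77% of all tested peaks.

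**Figure D3:**
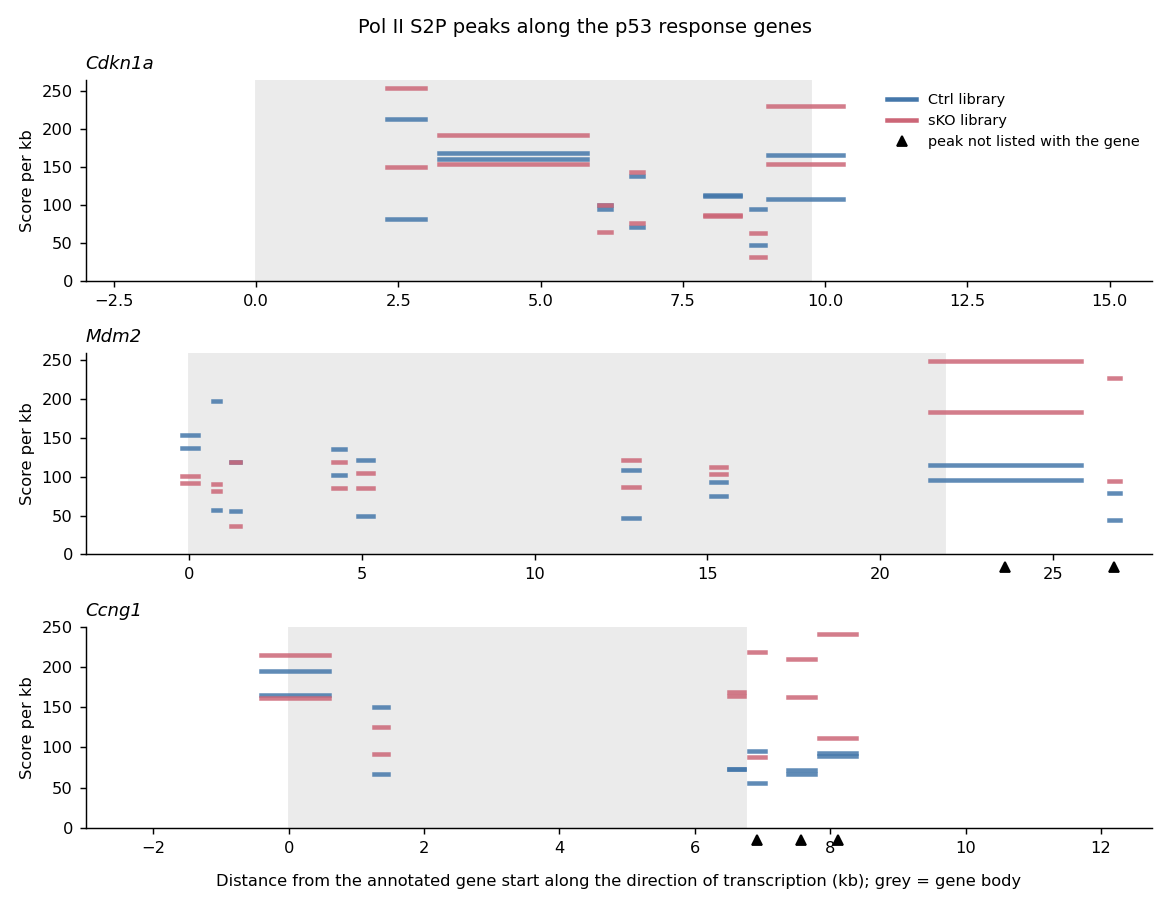
Pol II S2P peaks along the 3 genes, plotted by distance from the annotated start (kb) against score per kb of peak, with 1 line per library, the gene body in grey and triangles under peaks that the table lists with another gene or none. The Ctrl and sKO lines overlap in 13 of the 17 listed peaks and stand apart in 4, with sKO above in 2 and below in 2, and past the ends of Mdm2 and Ccng1 most sKO lines lie above the Ctrl lines.

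Just past the 3′ ends of Mdm2 and Ccng1, in most peaks that the tables do not list with them, Pol II S2P was higher in both sKO libraries. The 3′ end of Mdm2 lies in a peak listed with Cpm (chr10:117684950-117689307), which scored 417 and 501 in Ctrl and 1083 and 798 in sKO. The last pair happens to equal the sums of Cdkn1a, which come from other peaks. Its log2FC was 1.02 (unadjusted p 0.00978 with limma, adjusted p 0.999), and at equal totals it was called higher (0.88), as were 2.11% of peaks. Of this peak 9.94% lies in Mdm2. Further into Cpm, 4732 bases past the end of Mdm2, the next peak scored 15 and 27 in Ctrl and 77 and 32 in sKO. The one after it, 10011 bases past Mdm2, scored 1 and 4 in Ctrl and 38 and 8 in sKO, too low to test. Both sKO libraries were thus higher in these Cpm peaks as well. Cpm runs towards Mdm2, so that the 2 genes cannot be told apart in the peak they share. To which of them the difference belongs was not tested. The order was not confined to the 3′ side. Before the start of Mdm2, peaks 6786 and 10779 bases away also had sKO above Ctrl. They scored 76 and 105 in Ctrl against 156 and 128 in sKO, and 23 and 24 in Ctrl against 51 and 29 in sKO. In the next peak out, 21536 bases before the start, the genotypes overlapped.

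Ccng1 showed the same order in its own last peak, which scored 16 and 16 in Ctrl and 36 and 37 in sKO and was too low to test. So did the outer 2 of 3 peaks with no gene just past its end. From the gene outwards the 3 peaks scored 14 and 24 in Ctrl and 55 and 22 in sKO, then 27 and 29 in Ctrl and 84 and 65 in sKO, then 49 and 51 in Ctrl and 132 and 61 in sKO. The genotypes stood apart in all of these peaks but the one nearest to the end, which was also too low to test. Further out, 14456 bases past Ccng1, a peak listed with Nudcd2 had the reverse order, with 123 and 166 in Ctrl and 111 and 96 in sKO.

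To set these regions beside those of other genes, the score within 3 kb downstream of each gene's end was computed, with each peak counted by the fraction inside, a count added after these peaks were seen. It came to 287 and 345 in Ctrl and 746 and 549 in sKO for Mdm2 and to 90 and 104 in Ctrl and 271 and 148 in sKO for Ccng1. The sKO libraries lay above the Ctrl libraries in both genes, as in 15.7% of the 4357 zones tested. The log2FC values were 1.02 ± 0.41 (SE) for Mdm2 and 1.04 ± 0.43 for Ccng1, at percentiles 98.7 and 98.8, where the median zone had 0.16.

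Neither zone was called on the deposited scale (unadjusted p 0.0121 and 0.0147 with limma, adjusted p 1 for each), nor was any other (0%), with 91 zones at an unadjusted p under 0.05. At equal totals both were called higher, Mdm2 with 0.88 (limma adjusted p 3.55e-07) and Ccng1 with 0.90 (limma adjusted p 0.00277), as were 2.94% of zones. Leaving out 1 library at a time gave 0.80 to 1.24 for Mdm2 and 0.61 to 1.48 for Ccng1, the lower value of each without sKO replicate 1. In Cdkn1a the zone scored 61.1 and 93.9 in Ctrl and 131 and 87.0 in sKO. The genotypes overlapped there (0.49 ± 0.45).

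At the other end of the genes the score within 1 kb of the start, also a count added after the data were seen, was 84 and 105 in Ctrl and 60 and 66 in sKO for Mdm2. Both sKO libraries were lower, as in 8.94% of the 6689 start zones tested, with a log2FC of -0.57 ± 0.42 (SE, limma adjusted p 1) at percentile 2.26 and 0% of zones called lower. In the start zone of Ccng1 (0.05 ± 0.39) the genotypes overlapped.

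The ratio of the downstream zone to the start zone does not depend on the scale of a library. It was computed after both zones had been seen, so it restates the values above and adds no evidence to them. For Mdm2 the log2 ratio was 1.76 and 1.71 in Ctrl and 3.61 and 3.04 in sKO, differing by 1.59. For Ccng1 it was -0.89 and -0.93 in Ctrl and 0.31 and -0.15 in sKO, differing by 0.99. The ratio was higher in both sKO libraries for both genes, an order found in 33.4% of 2793 genes with both zones, and the median gene differed by 0.17. For Mdm2 the numerator holds the end of Cpm, as above.

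**Figure D4:**
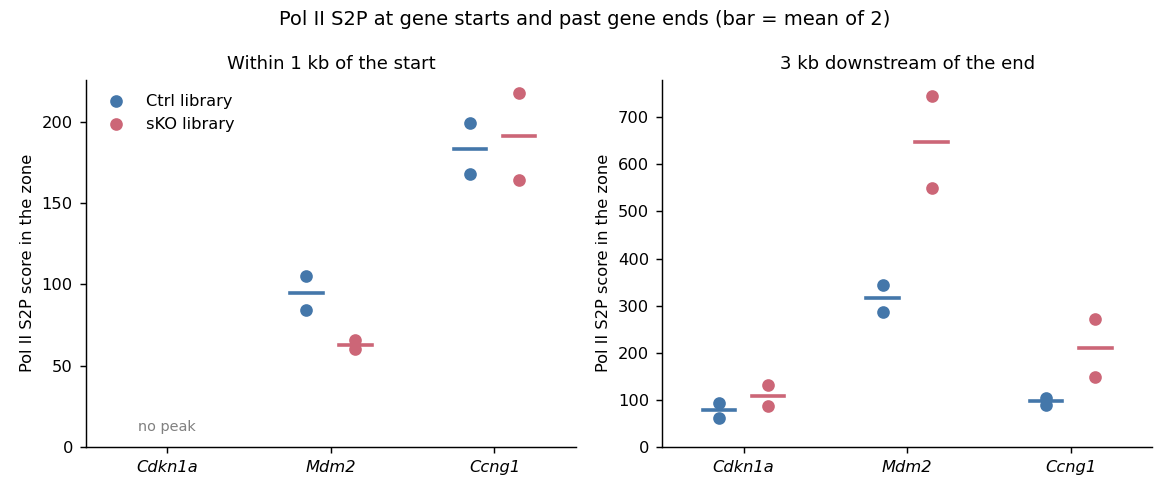
Pol II S2P score (vertical axes, linear, from 0) within 1 kb of the start (left) and in the 3 kb downstream of the end (right) of the 3 genes, with points for libraries and bars for the mean of 2. Downstream of Mdm2 and Ccng1 the sKO points lie above the Ctrl points, and at the start of Mdm2 they lie below.

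**Figure D5:**
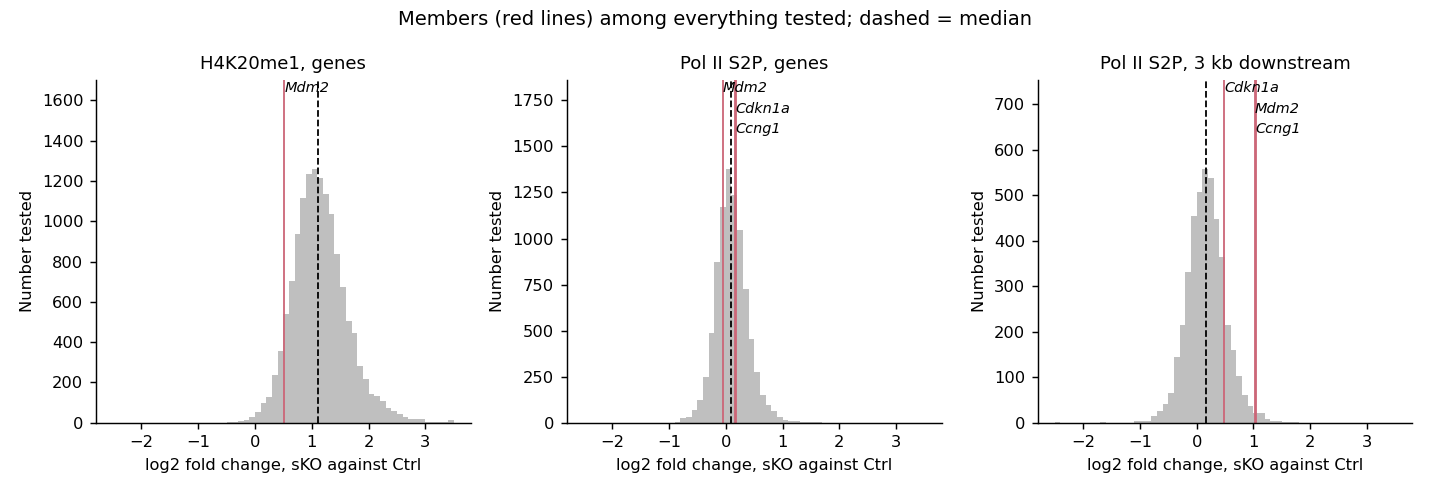
Histograms of the limma log2FC values (sKO against Ctrl) over all tested genes for H4K20me1 and Pol II S2P and over all tested downstream zones for Pol II S2P, with members as red lines, the median dashed and values beyond the axis put in the end bins. Mdm2 sits at 0.52 for H4K20me1, the 3 genes are close to the Pol II S2P median, and Mdm2 and Ccng1 stand at 1.02 and 1.04 in the right tail of the zones.

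The wider pathway was described with a list of 44 p53 target genes and one of 23 regulators of p53. For Pol II S2P 25 targets and 19 regulators were tested and 0 were called in either direction, with a median log2FC of 0.13 in each list beside 0.09 over all genes. Among the targets 3 had sKO scores that were all above those of Ctrl and 2 the reverse, and among the regulators 1 and 0, beside the 9.41% and 4.52% of all genes given above. Zmat3, which encodes an RNA-binding protein, had the highest fold change, scoring 48 and 81 in Ctrl and 140 and 129 in sKO. Its log2FC was 1.09 ± 0.44 (SE, unadjusted p 0.0121 with limma, adjusted p 1), and at equal totals it was the 1 gene of the lists called higher, as were 1.27% of all genes.

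Next came Mdm4, the partner of MDM2, with 0.61, Hipk2, a kinase that phosphorylates p53, with 0.60, and Gadd45a, a DNA damage response gene, with 0.60. The lowest were Ppm1d, the phosphatase WIP1 (-0.49), Bbc3, the apoptosis gene PUMA (-0.33), Wrap53 (-0.32) and Trp53bp2 (-0.27), whose product binds p53 and promotes apoptosis. None of these was called. Per kb of gene the highest Ctrl scores were those of Sertad1 (74.0), the apoptosis gene Bax (57.6), the ribosomal protein gene Rps27l (45.2) and Rpl11 (39.8), a ribosomal protein that binds MDM2, all below Cdkn1a. Trp53cor1, the long non-coding RNA gene lincRNA-p21 near Cdkn1a, scored 439 and 556 in Ctrl and 628 and 466 in sKO. Pol II S2P downstream zones were tested in 27 genes of the lists, and at equal totals 2 were called higher, Aen (0.73) and Trp53bp2 (0.61), beside the 2.94% of all zones given above. Aen, a nuclease gene of the apoptosis arm, was named after its value was seen.

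For H4K20me1 25 targets and 20 regulators were tested, of which 24 and 17 were called higher beside 92.3% of all genes, with medians of 1.11 and 0.94 beside 1.11 over all genes. The largest rises were in Pidd1, a death domain gene (2.30), Ak1, an adenylate kinase gene (2.13), Gadd45a (1.73) and the checkpoint kinase gene Chek2 (1.72). The smallest were in regulators that, like Mdm2, stayed below the median, namely the acetyltransferase gene Crebbp (0.19), Mdm4 (0.32) and Usp7, a deubiquitinase of MDM2 (0.39), and in Plk2 (0.43), a polo-like kinase gene, none of them called. At equal totals Crebbp, Mdm4 and Usp7 were called lower and 9 genes of the lists higher, beside 4.31% and 24.1% of all genes. Per kb of gene the highest Ctrl scores were in Gadd45a (160), Perp (112), Xpc (65.9) and Trp73 (65.5). Of the targets on autosomes 12 of 43 (27.9%) were, like Cdkn1a, crossed by no H4K20me1 peak, beside 27.5% of protein-coding genes, and of the regulators 1 of 23 (4.35%).

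The genes most like each member over the libraries were found by the root mean square difference of log2(score + 1). For Mdm2, over the 8 libraries of both antibodies and 7413 other genes, they were Mapre3 (0.14), Naa50 (0.15) and Alkbh5 (0.16). For Cdkn1a, over the 4 Pol II S2P libraries and 11036 other genes, they were Myo1e (0.05), Exosc1 (0.05) and Ap4s1 (0.05), and for Ccng1 they were Cggbp1 (0.03), Cdk4 (0.04) and Ccnt1 (0.05).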

How the data were processed

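H4K20me1 and Pol II S2P were measured by CUT&RUN in 2 Ctrl and 2 sKO libraries each. Per the labels and the study's methods, the authors checked reads with FastQC 0.11.8, trimmed them with Trimmomatic 0.39, aligned them with STAR 2.7.3a to mm10 (GRCm38), removed duplicates with Picard 2.21.7, called peaks with SICER or MACS2 2.1.1 and normalised coverage by an S2 cell spike-in (BDGP6). The deposited score is such coverage, rounded to whole numbers, for union peaks shared by the 4 libraries of an antibody. The deposited fraction gives how much of a peak lies in its gene. Spike-in factors and the library read totals that the study states were not used here. The scale between libraries was therefore not checked, and scores were not turned back into reads, so no counting interval is given.

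The members and the gene lists were chosen with earlier results of these data known, and 1 further gene of the set is not reported here. Genes and peaks on autosomes with a mean score over 50 and 30 were compared with limma 3.58.1 (lmFit, eBayes with trend) in R 4.3.3 on log2(score + 1), by genotype, with Benjamini-Hochberg adjustment over all features tested. The fit was tested on simulated data with a variance 4 times the mean and no difference in scale between libraries. There a change of 1 (log2) was recovered in 73 of 89 Pol II S2P genes with 14 false calls. In Pol II S2P peaks it was recovered in only 29 of 93 with 13 false calls, so that most single-peak changes of that size would be missed. The real libraries of a group differed in their totals. Of the 8531 Pol II S2P genes 0 were called higher, and Zmat3 was not called at 1.09. Gene changes of that size could thus be missed as well, and the simulated recovery does not carry over to these data. An exact permutation test of 2 against 2 libraries cannot give a two-sided p under 0.333 and was not used. Genes named beside the members were the 4 highest and 4 lowest fold changes and the 4 highest scores per kb over both lists, genes sharing a peak with a member, and the 3 genes most like each. Genes were matched to GENCODE M21 by identifier, and 13742 of 13763 H4K20me1 genes and 11021 of 11037 Pol II S2P genes were found. Peak coordinates are as deposited. H4K20me1 starts look 0-based, which shifts them by 1 base. Sequences were read with pysam 0.24.0, and tables were made with Python 3.11.15, numpy 2.4.6 and pandas 2.3.3. Alternatives were equal totals, quantile normalisation, a pseudocount of 10, no minimum, no trend, a replicate block, other ways of crediting peaks and leaving out each library.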

Additional observations from a re-analysis of the deposited data

How the results depend on the processing

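Values are log2FC, sKO against Ctrl, and calls those of limma. The H4K20me1 results depended on the scale. At equal totals the median gene fell from 1.11 to 0.18, Mdm2 had -0.41, and under quantile normalisation it had -0.51, so that 1 member called higher became 0 under either and 1 was called lower under the latter. Crediting crossing peaks by overlap, with or without 3 kb downstream, gave 2 members called higher, since it counts the peak over Ccng1. Of the listed pathway genes, 41 called higher became 9 at equal totals and 4 under quantile normalisation, with 3 and 5 called lower. Over peaks, that of Mdm2 had -0.41 and -0.38 under these scales, and its call was lost under both and without the variance trend, which left 0 peaks called. Leaving out 1 library at a time gave 0.35 to 0.69 for Mdm2, with 0 to 1 members, 0 to 1 member peaks and 16 to 43 pathway genes called higher. The fewest pathway genes were called without sKO replicate 2. A group left with 1 library is assumed to vary like the other.

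No member or member peak was called for Pol II S2P under any alternative run, and the signs of some of these small differences changed. Of 100 values for 10 tested peaks 11 changed sign, in 6 peaks. When crossing peaks were credited by overlap Mdm2 had 0.24 and Ccng1 0.23, and with 3 kb downstream included, a count added after the data were seen, 0.70 and 0.62. Of the listed pathway genes 1 and 2 were called higher at equal totals and under quantile normalisation, beside 0. Without 1 library the ranges were -0.37 to 0.27 for Mdm2, -0.053 to 0.39 for Cdkn1a and 0.017 to 0.33 for Ccng1. Peaks are named by the distance of their centre from the gene's start. At equal totals and under quantile normalisation the Cdkn1a peak at 4517 bases had -0.076 and -0.040 and the Ccng1 peak at 93 bases -0.091 and -0.032. Without 1 library the Cdkn1a peaks ranged from -0.13 to 1.25 (2637 bases) and from -0.096 to 0.22 (4517 bases), the Mdm2 peaks from -0.079 to 1.11 (12795 bases), from -0.36 to 0.88 (5103 bases) and from -0.46 to 0.014 (4345 bases), and the Ccng1 peak from -0.16 to 0.25 (93 bases). The cause of these changes was not tested.

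With the replicate number as a block Mdm2 had 0.52 for H4K20me1 (limma adjusted p 0.0184), and no call of a member changed. The numbers were not taken as a pairing, since the deviations of same-numbered libraries had correlations of 0.041 for H4K20me1 and -0.043 for Pol II S2P over genes. The depth behind the scores and the spike-in factors were not used here. From the scores alone, a difference in scale between the genotypes and one in H4K20me1 at all genes cannot be told apart. The deposited scale was set by the spike-in, and by Western blot and immunofluorescence the study reports more H4K20me1 in sKO cells. With 2 libraries a group no library could be tested for standing apart.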
